A study of Mus musculus with 6 samples.

Results

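The teneurins (Tenm1, Tenm2, Tenm3 and Tenm4), the latrophilins (Adgrl1, Adgrl2 and Adgrl3) and the brain-specific angiogenesis inhibitor (BAI) receptors (Adgrb1, Adgrb2 and Adgrb3) were examined for DNA break ends in sorted mouse forebrain neurons. The 10 genes were chosen by name as 3 families of cell-surface proteins of the synapse, out of 21755 protein-coding genes on chromosomes 1 to 19 and X, and each was taken from start to end of its annotated body on mm10. All 10 passed the minimum of 10 reads in at least 2 libraries that a gene needed to be tested. Breaks were mapped by BLISS, which repairs and tails double-strand break ends inside fixed nuclei, joins adaptors to them, copies the tagged DNA into RNA and sequences it. Every library came from forebrain neurons of CK-p25 mice after 2 weeks without dietary doxycycline, which switches on p25, an activator of the kinase Cdk5. The labels give the same genotype and treatment for all 6 libraries, so by the labels the Con libraries carry the transgene and the induction too. In this line the Camk2a promoter drives the transgene, so that p25 is made mainly in excitatory neurons of the forebrain. The 6 libraries are named Con, Step1 and Step2, with 2 replicates each. The labels do not say how the groups differ, or whether replicates are separate mice or pools, so a p-value here reflects no more than the scatter among these libraries, and that scatter may be technical.

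Teneurins are very large single-pass proteins that reach from one neuron to latrophilins on the next, and this pairing takes part in choosing and building synapses. Latrophilins and BAI receptors belong to the adhesion class of G-protein-coupled receptors, which carry long extracellular parts that bind ligands and a cleavable stalk next to the membrane. Most of these genes have long introns, and long neural genes are known as places where breaks recur in neural progenitor cells.

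Reads were placed at their 5′ ends, the labelled break ends, and counts were scaled to 1000000 reads of the library (CPM). Such values give the distribution of ends within a library, not the number of breaks in a cell, and fewer cells with breaks cannot be told apart from fewer breaks per cell. Depth ran from 1480461 to 2403238 reads per library. The libraries of a group differed beyond counting noise, with a chi-square per degree of freedom across genes of 1.46 to 2.17. Reads were shorter in Step2 (median 47 bases) and Step1 (48) than in Con (49), and the part of this difference in the results was not tested. The neuron label could not be checked through RNA, since these are DNA ends. At the starts of 6 neuronal marker genes 4.11 to 7.05 CPM were counted, against 3.63 to 7.76 at 4 microglial, 0.458 to 8.46 at 4 astrocyte, 1.32 to 8.23 at 4 oligodendrocyte and 0.877 to 4.64 at 4 vascular ones.

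Ends in the 10 genes were spread over 20292 distinct positions and strands, of which 5 were seen in 3 or more libraries. The densest single position of each gene held 154 reads in all 10 together, of which 31 and 111 came from Con replicates 1 and 2. In Step1 there were 3 and 0 such reads, and in Step2 1 and 8. The 4 positions with the most reads are shown as 30 bases of mm10, read 5′ to 3′ on the strand of the read, with the first base of the read in capitals. They were taken by read count alone, and 1 or both Con libraries supplied nearly all of their reads.
Adgrl3, chr5:81021738-81021767, plus strand: gccaagggggcgcctTttctccgctagtct
Tenm4, chr7:96681628-96681657, minus strand: ctgccatcactgcctGtaacaaccctctag
Tenm2, chr11:36064110-36064139, minus strand: tcatcagaaaagcctCccaatgatcaactg
Tenm1, chrX:43300190-43300219, plus strand: cctcattgctattctCcatatttacttcaa
The Adgrl3 position lay in an untranslated stretch of an exon, 1615 bases from the gene start, and the other 3 lay in introns. Adgrl3 had 29 reads there, 2 and 26 in Con, 0 in both Step1 libraries, and 1 and 0 in Step2. At the Tenm4 position there were 10 and 15 reads in Con and none in the other 4 libraries. The Tenm2 position had 19 and 1 reads in Con and the Tenm1 position 0 and 15, with none elsewhere.

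In 9 of the 10 genes most reads of the densest position came from Con, and 5 of these positions were seen in Con replicate 2 alone. The exception was Adgrb1, whose 8 reads all came from Step2 replicate 2. The same count was not made over all genes. These positions held 0.344% of the reads of Tenm2, 0.379% of those of Adgrb3, 0.794% of those of Tenm4 and 8.24% of those of the short Adgrb2. Over all 10 genes, reads per distinct position and strand were 1.26 and 1.38 in Con, with 1.11 and 1.16 in Step1 and 1.20 and 1.22 in Step2, so repeated reads were most frequent in Con. This was so in the whole libraries too, and is not particular to these genes. Taking 1 read per position kept 1773609 of 2203791 and 1590516 of 2183446 reads of the library size in Con. It kept 2013935 of 2280767 and 1674793 of 1941692 in Step1, and 1223234 of 1458813 and 1164852 of 1417749 in Step2. Because of the repeated reads, the shares, the fold changes of the 10 genes and the 100-kb windows are also given with 1 read per position and strand in each library. Values with no such mention are of all reads.

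**Figure D1:**
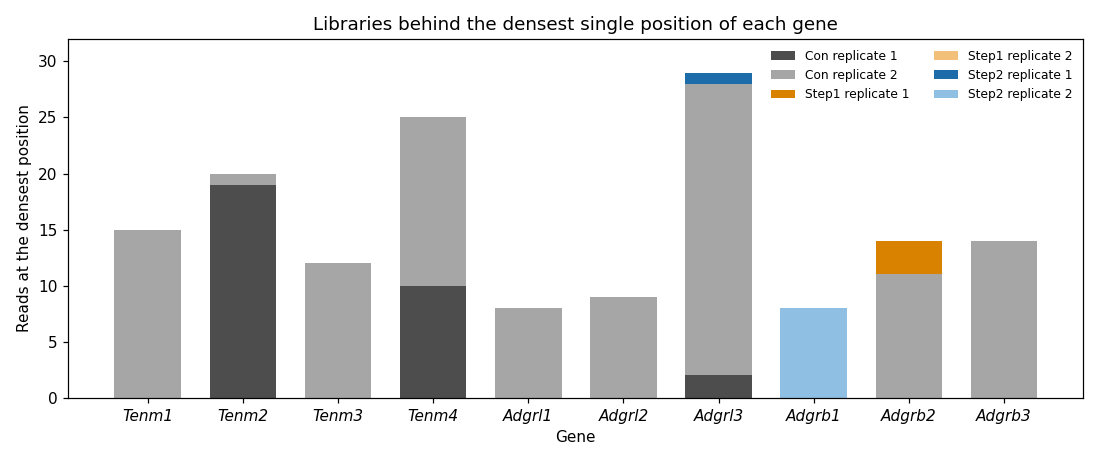
Reads at the densest single position of each gene (y axis, reads) for the 10 genes (x axis), stacked by library. The dark and light grey parts, Con replicates 1 and 2, make up most of every bar but that of Adgrb1, whose 8 reads came from Step2 replicate 2.

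The 10 bodies cover 5382 kb, 0.21% of the chromosomes counted. Tenm2, on chr11:36006656-37235964, is the longest at 1229 kb, followed by Tenm1 (chrX:42527866-43429126, 901 kb), Adgrl3 (chr5:81020138-81825133, 805 kb), Adgrb3 (chr1:25067476-25829707, 762 kb), Tenm4 (chr7:96171246-96911093, 740 kb) and Tenm3 (chr8:48227682-48843951, 616 kb). Adgrl2 (chr3:148815583-148990555) spans 175 kb, Adgrb1 (chr15:74516195-74589465) 73.3 kb, Adgrl1 (chr8:83900105-83941954) 41.9 kb and Adgrb2 (chr4:129984870-130022633) 37.8 kb. GC content was 54.9% to 56.1% in the 3 shortest and 36.6% to 45.5% in the other 7. Over all libraries the reads ran from 5806 in Tenm2 to 151 in Adgrl1, so that the short genes are measured far less precisely. The coding gene Sh2d1a lies inside the Tenm1 body and Gm10644 overlaps Adgrl1, and reads there cannot be assigned to one of the pair.

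Per kb, ends were about as dense in these genes as in the genome as a whole, which held 0.391 CPM per kb. Mean density over the 6 libraries was lowest in Adgrl1, at 0.315 ± 0.0414 CPM per kb (SD, n = 6), and highest in Adgrl2, at 0.437 ± 0.0658. Between them came Tenm4 (0.367 ± 0.0265), Adgrb2 (0.39 ± 0.101), Adgrl3 (0.398 ± 0.0236), Tenm3 (0.404 ± 0.0366), Tenm2 (0.408 ± 0.0317), Tenm1 (0.414 ± 0.0297), Adgrb3 (0.417 ± 0.0498) and Adgrb1 (0.418 ± 0.041). Neighbours in this order differed by no more than the larger of their SDs over libraries, except for Adgrl1 and Tenm4. The order was not the same in each group: Adgrl2 was densest in Con (0.504 ± 0.0825, SD, n = 2) and in Step1 (0.414 ± 0.0221). In Step2 it had 0.391 ± 0.00615, below Adgrb1 (0.427 ± 0.0316), Adgrl3 (0.401 ± 0.0112), Tenm1 (0.401 ± 0.0403) and, narrowly, Tenm2 (0.392 ± 0.0159). Against the 200 kb on either side, Adgrl1 had 0.631 to 0.729 times the density in the 6 libraries and Adgrl2 1.04 to 1.53 times. Tenm1, the X-linked teneurin, had 1.06 to 1.22 times the mean density of chromosome X, with 0.623% and 0.675% of the reads of that chromosome in Con, compared with 0.603% and 0.647% in Step1 and 0.583% and 0.667% in Step2.

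**Figure D2:**
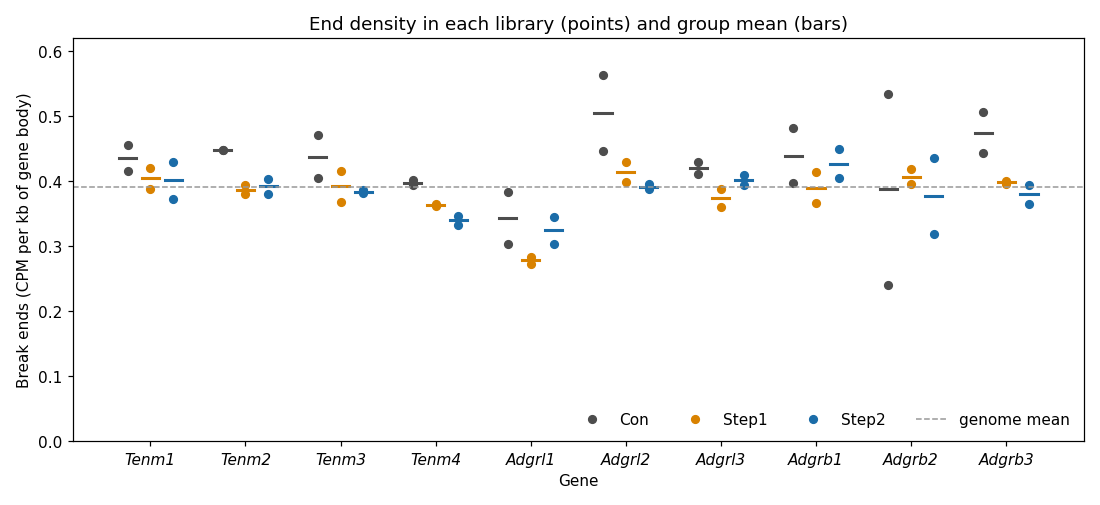
Break-end density (CPM per kb of gene body, y axis) of each gene (x axis) in each of the 6 libraries, as points, with the group mean as a bar and the genome mean of 0.391 as a dashed line. Points of Tenm2, Tenm4, Adgrl2, Adgrl3 and Adgrb3 are higher in both Con libraries than in all 4 others, while Adgrb2 is widely spread within Con.

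The comparisons of Step1 and of Step2 with Con ask whether break ends lie in these genes to the same extent in each neuron group, and both use the same 2 Con libraries. Together the 10 bodies held 0.232% and 0.239% of reads in Con, against 0.205% and 0.212% in Step1 and 0.202% and 0.212% in Step2. Every Step1 and Step2 library lay below both Con libraries. The Step1 mean was 0.0274 percentage points below Con (0.208% ± 0.0049 against 0.235% ± 0.00535, SD, n = 2), written as a difference of −0.0274. Step2 differed from Con by −0.0284 points (0.207% ± 0.00674). The exact two-sided permutation test gave p = 0.33 for each, the smallest that 2 libraries against 2 can give. The 2 sequencing runs, found in every library, gave −0.0296 and −0.0257 points for Step1 and −0.0336 and −0.0239 for Step2. Counting 1 read per position, the differences were −0.0239 and −0.0266 points, and again no Step1 or Step2 library reached Con. How often other sets of genes lie below Con in this way was not counted.

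The share was below Con in each family. The teneurins held 0.151% of reads in both Con libraries, 0.133% and 0.137% in Step1, and 0.129% and 0.137% in Step2. Latrophilins had 0.0436% and 0.0445% in Con, with 0.0371% and 0.0399% in Step1 and 0.04% and 0.041% in Step2. For the BAI receptors the shares were 0.0375% and 0.0441%, 0.0348% and 0.0346%, and 0.0328% and 0.0342%. In all 3 families the Step1 and Step2 libraries lay below both Con libraries, also with 1 read per position, and the exact two-sided permutation p was 0.33 for each family and comparison. Of single genes, 21.3% lay so in Step1 and 21.7% in Step2, and 40% and 42.3% of those over 300 kb. Most BAI receptor reads were from Adgrb3, with a mean of 361 CPM in Con against 32.2 for Adgrb1 and 14.6 for Adgrb2. Adgrb1 and Adgrb2 themselves overlapped Con in both comparisons.

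Gene by gene, in limma (voom) with Benjamini-Hochberg adjustment over all 13811 genes tested, Tenm2 alone was called in Step1, meaning past an adjusted p of 0.05. It was lower than in Con, a call made for 0.101% of all genes. In Step2 none of the 10 was called, where 0.0796% of genes were called lower. With 1 read per position Tenm2 and Adgrb3 were called in Step1 (background 0.11%) and Adgrb3 in Step2 (background 0.0944%), all lower than Con. In the 3 shortest genes the errors were as large as the differences or larger. Genes over 300 kb, which include 6 of the 10, lay low as a class, with 7 of 567 called in Step1, 5 in Step2 and none of these higher. With 1 read per position 13 of the 567 were called in Step1 and 11 in Step2, again all lower. Tenm2 and Adgrb3 are both in this class.

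Among the teneurins, the ligand side of the pairing, Tenm2 gives rise to the splice form isolated as a partner of latrophilin. Tenm2 had 551 and 550.0 CPM in Con, compared with 483 and 466 in Step1 and 468 and 495 in Step2. The Con libraries were nearly equal and above the other 4. Its log2 fold change was −0.21 ± 0.05 (SE) in Step1 (limma, adjusted p = 0.0336) and −0.19 ± 0.05 in Step2 (adjusted p = 0.233). With 1 read per position the values were −0.18 ± 0.04 (limma, adjusted p = 0.0173) and −0.17 ± 0.05 (adjusted p = 0.159).

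Tenm4, which acts in the formation of myelin as well as between neurons, had 291 and 297 CPM in Con, against 267 and 269.9 in Step1 and 256 and 246 in Step2. The groups did not overlap, with Step2 lowest. Its log2 fold change was −0.13 ± 0.07 in Step1 and −0.23 ± 0.08 in Step2, and neither was called in limma (adjusted p = 0.717 and 0.476). It was −0.20 ± 0.06 and −0.24 ± 0.07 with 1 read per position. Tenm3, which guides the wiring of visual and hippocampal circuits, had 290.0 and 249 CPM in Con, with 227 and 256 in Step1 and 235 and 238 in Step2. Its Step1 libraries overlapped Con, and its Step2 libraries were both below Con. The values were −0.17 ± 0.08 and −0.19 ± 0.09 (limma, adjusted p = 0.686 and 0.638), or −0.13 ± 0.07 and −0.14 ± 0.08 with 1 read per position. They moved with the Con library left out, and were −0.06 and −0.08 without Con replicate 1, and −0.28 and −0.29 without Con replicate 2. Tenm1 had 374 and 411 CPM in Con, compared with 349.9 and 379 in Step1 and 336 and 387 in Step2, and both groups overlapped Con. Its values were −0.11 ± 0.06 and −0.12 ± 0.07, and with 1 read per position −0.05 ± 0.05 and −0.06 ± 0.06. In Step1 Tenm1 had −0.05 without Con replicate 2 and −0.18 without Con replicate 1, and in Step2 −0.02 and −0.22 without Step2 replicate 1 or 2.

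Of the latrophilins, which bind teneurins and the FLRT proteins, Adgrl3 had 345 and 330.2 CPM in Con, against 289.8 and 312 in Step1 and 317 and 329 in Step2. Both other groups lay below Con, Step2 by a narrow gap. The log2 fold change was −0.17 ± 0.06 in Step1 and −0.06 ± 0.07 in Step2 (limma, adjusted p = 0.556 and 0.864), and with 1 read per position −0.11 ± 0.06 and −0.09 ± 0.07. Without Step1 replicate 1 the Step1 value was −0.12, and without Con replicate 1 the Step2 value was −0.03. Adgrl2, which sits at the postsynaptic side of hippocampal inputs, had 78 and 98.5 CPM in Con, with 69.7 and 75.2 in Step1 and 69.2 and 67.7 in Step2. All 4 of the latter were below Con, and Con replicate 2 stood above the rest. Its values, −0.28 ± 0.14 and −0.35 ± 0.16, were not called (limma, adjusted p = 0.712 and 0.614), and with 1 read per position they were −0.19 ± 0.12 and −0.26 ± 0.14. Without Con replicate 2 they came to −0.11 and −0.19, and without Con replicate 1 to −0.45 and −0.52. Adgrl1, a receptor for the spider toxin latrotoxin, had 12.7 and 16.0 CPM in Con, compared with 11.4 and 11.8 in Step1 and 14.4 and 12.7 in Step2. Its Step1 libraries were below Con and its Step2 libraries overlapped Con, with log2 fold changes of −0.29 ± 0.33 and −0.06 ± 0.35, and of −0.25 ± 0.29 and −0.05 ± 0.31 with 1 read per position. Leaving out 1 library gave −0.46 to −0.13 in Step1 and −0.23 to 0.10 in Step2.

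Adgrb3, the BAI receptor that binds C1q-like proteins, had 337 and 385 CPM in Con, against 302 and 304 in Step1 and 278 and 300.5 in Step2. Every Step1 and Step2 library was below both Con libraries, and Con replicate 2 was the highest. Its log2 fold change was −0.25 ± 0.07 in Step1 and −0.32 ± 0.08 in Step2, short of a call in both (limma, adjusted p = 0.145 and 0.0945). With 1 read per position Adgrb3 had 339 and 379 CPM in Con, with 299 and 294 in Step1 and 267 and 301 in Step2. It was then called in both comparisons, at −0.26 ± 0.06 (limma, adjusted p = 0.00598) and −0.33 ± 0.07 (adjusted p = 0.00172). Adgrb1, a receptor for phosphatidylserine on dying cells that also acts at dendritic spines, had 29.0 and 35.3 CPM in Con, compared with 30.3 and 26.8 in Step1 and 32.9 and 29.6 in Step2. Adgrb2 had 9.08 and 20.2 CPM in Con, against 15.8 and 14.9 in Step1 and 16.5 and 12 in Step2. In both genes the groups overlapped, and the log2 fold changes were −0.16 ± 0.22 and −0.03 ± 0.24 for Adgrb1 and 0.18 ± 0.33 and 0.07 ± 0.38 for Adgrb2. They were −0.19 ± 0.19 and −0.20 ± 0.21 for Adgrb1 and 0.17 ± 0.28 and 0.01 ± 0.32 for Adgrb2 with 1 read per position. Leaving out either Con library moved Adgrb1 between −0.30 and −0.02 in Step1 and between −0.17 and 0.11 in Step2, and Adgrb2 between −0.38 and 0.75 and between −0.50 and 0.63.

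**Figure D3:**
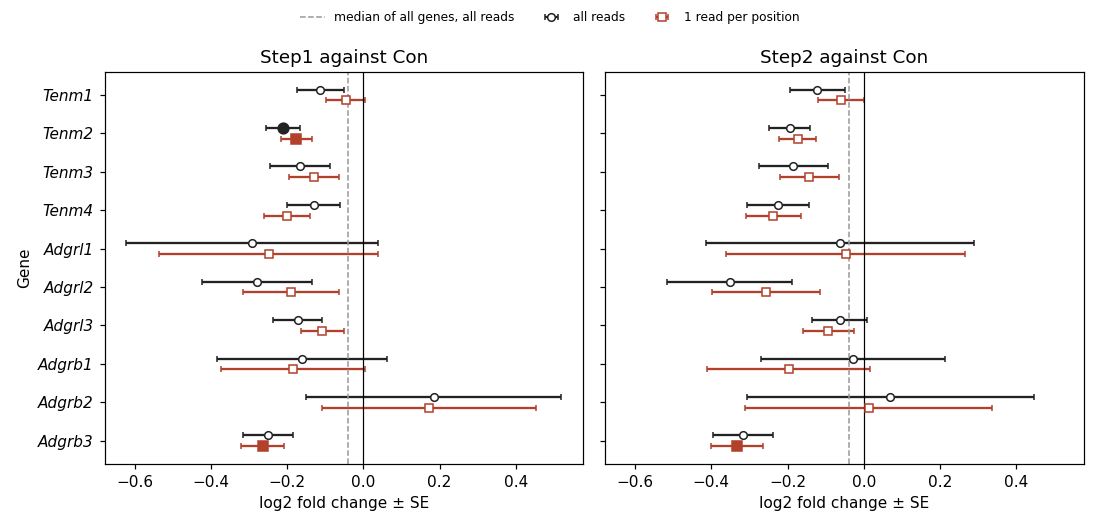
log2 fold change ± SE (x axis) of each gene (y axis) in Step1 and in Step2 against Con, with all reads (circles) and with 1 read per position (squares); filled symbols passed an adjusted p of 0.05 in limma and the dashed line is the median of all genes. Tenm2 is filled in Step1 with both read sets, and Adgrb3 with 1 read per position in both panels.

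Both libraries of a group lay below both Con libraries in 6 of the 10 genes in Step1 (Tenm2, Tenm4, Adgrl1, Adgrl2, Adgrl3 and Adgrb3), against 21.3% of all genes tested and 40% of genes over 300 kb. In Step2 it was 6 as well (Tenm2, Tenm3, Tenm4, Adgrl2, Adgrl3 and Adgrb3), against 21.7% and 42.3%. The log2 fold change was below 0 in 9 of 10 genes in each comparison, where it was so in 54.7% and 54% of all genes and in 73.7% and 74.4% of those over 300 kb. An unadjusted p below 0.05 on the lower side was reached by 4 genes in Step1 (Tenm2, Tenm3, Adgrl3 and Adgrb3) and 5 in Step2 (Tenm2, Tenm3, Tenm4, Adgrl2 and Adgrb3), against 4.69% and 4.68% of genes, and 18.5% and 22.4% of those over 300 kb. Counting 1 read per position, this was reached by 3 genes in each comparison, Tenm2, Tenm4 and Adgrb3, against 6.13% and 4.97% of genes. Among the 567 genes over 300 kb it was then reached by 121 in Step1 and 148 in Step2. The median of the 10 values was −0.17 in Step1 and −0.15 in Step2, beside −0.04 for all genes in both and −0.07 and −0.08 for genes over 300 kb.

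The Step1 count of 1 called gene and the Step2 count of 0 both depend on the processing. With limma-trend in place of voom both counts were 0, where 12 and 33 of 13811 genes were called. Counting 1 read per position, limma called 2 members in Step1 and 1 in Step2. Without Con replicate 1 the counts were also 2 and 1, but calls then rose among all genes, to 1.28% in Step1 and 0.883% in Step2. The Tenm2 call in Step1 ended with median-of-ratios scaling (limma, adjusted p = 0.205), within either sequencing run (0.164 and 0.558) and without any single library other than Con replicate 1. Its adjusted p was 0.117 without Con replicate 2. Leaving out Step1 replicate 1 or 2 gave 0.369 or 0.623, and leaving out Step2 replicate 1 or 2 gave 0.0914 or 0.0932. Over 24 alternatives the Tenm2 value in Step1 ran from −0.29 to −0.12, its adjusted p from 0.00407 to 0.623, and it was called in 11. Adgrb3 was called in 4 of 24 alternatives in Step1 (limma, adjusted p from 0.00156 to 0.991) and in 7 of 24 in Step2 (0.00124 to 0.853). Its values ran from −0.35 to −0.15 and from −0.41 to −0.22, the largest without Con replicate 1 and the smallest without Con replicate 2. Under the scalings tried, the 7 genes over 100 kb kept values below 0 against Con, with 1 exception, Tenm1 in Step1 with 1 read per position and median-of-ratios scaling. Signs of the 3 short genes changed under several alternatives.

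**Figure D4:**
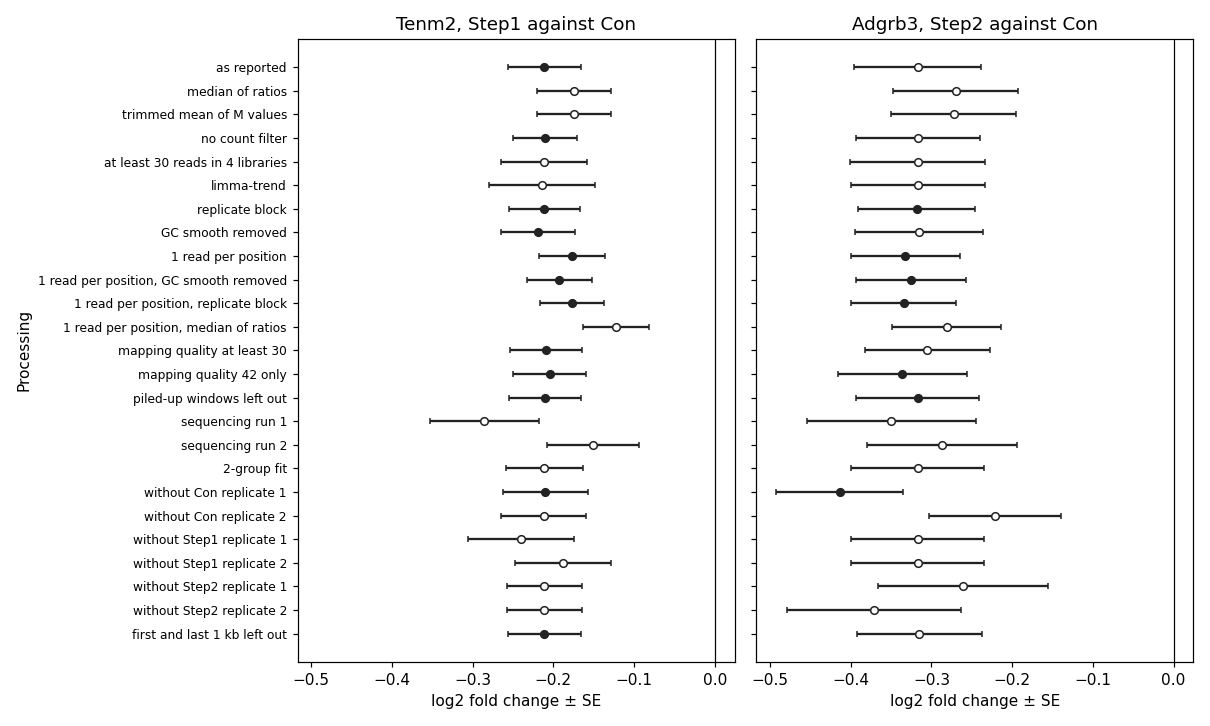
log2 fold change ± SE (x axis) of Tenm2 in Step1 and of Adgrb3 in Step2 against Con under each way of processing (y axis), with filled points where the adjusted p in limma was at most 0.05. All points lie below 0, and the filled ones number 12 for Tenm2 and 7 for Adgrb3.

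Step2 was compared with Step1 to see whether the groups apart from Con differ from each other, and little was measured between them. The share of reads in the 10 bodies differed by −0.000997 percentage points (exact two-sided permutation p = 1). In limma 0 of the 10 genes were called, with an adjusted p of 0.999 for each, against 0.0434% of genes called in either direction. An unadjusted p below 0.05 was found for 0 of the 10, against 3.42% of genes. limma-trend also gave 0, where it called 10 of 13811 genes. So did 1 read per position, with which 0.0315% of genes were called. For Tenm2 the log2 fold change was 0.02, with a 95% interval from −0.10 to 0.13, and for Adgrb3 it was −0.07, from −0.23 to 0.10. Both Step2 libraries were below both Step1 libraries in 3 genes (Tenm4, Adgrl2 and Adgrb3), against 17.9% of genes, and above both in 2 (Adgrl1 and Adgrl3), against 16.1%.

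Each body was divided into 10 equal parts from its start, with all reads counted. Along the bodies the lower values in Step1 and Step2 were not at one place, though in Adgrb3 the gap from Con was widest in the second and ninth parts. Tenm2 had a lower mean density than Con in 8 of 10 parts in Step1 and in 9 in Step2, with ratios of 0.733 to 1.12 and of 0.683 to 1.09. The 0.683 was in the last part, whose 124 and 106 Con reads include 19 and 1 at the densest position of Tenm2. Adgrb3 was lower in 8 of 10 parts in both, with ratios of 0.616 to 1.37 and of 0.581 to 1.25. The lowest Adgrb3 ratio in both comparisons was in the ninth part, where it had 88 and 124 reads in Con, with 76 and 51 in Step1 and 46 and 35 in Step2. In the second part Con had 0.571 and 0.775 CPM per kb, Step1 0.391 and 0.486, and Step2 0.324 and 0.463. Of the 129 reads of Con replicate 2 in that part, 14 came from the densest position of the gene. Con was above both other groups in each of these parts. Adgrl3 was lower in 9 of 10 parts in Step1 and 7 in Step2, Tenm4 in 8 and 9, Tenm3 in 7 and 8, and Tenm1 in 7 and 8.

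**Figure D5:**
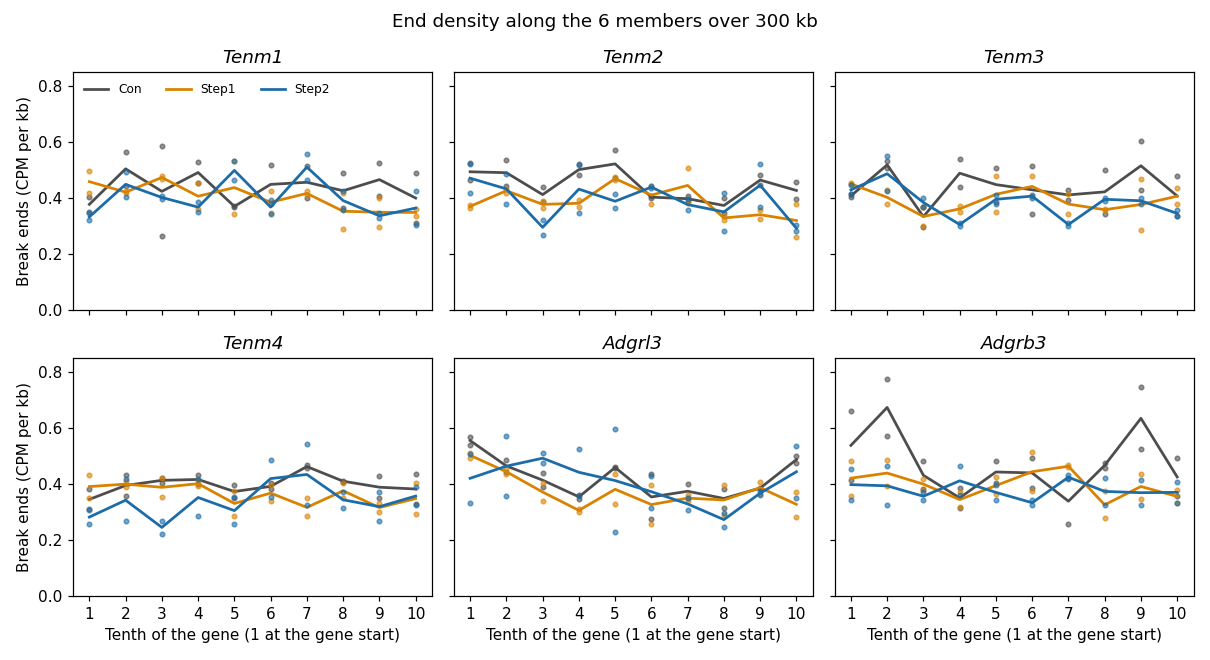
Break-end density (CPM per kb, y axis) in 10 equal parts of the 6 genes over 300 kb (x axis, part 1 at the gene start), with lines for group means and points for libraries. In Tenm2 the Con line is above the Step1 line in 8 of 10 parts, and in Adgrb3 the Con line stands out in the second and ninth parts. All reads are counted, and the second part of Adgrb3 holds its densest position, with 14 reads of Con replicate 2.

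Of the 100-kb windows of the genome, 45 lay wholly inside these 6 genes. limma called 0 of the 45 in Step1 against Con, where 0.0158% of all windows were called, 0 in Step2 against Con (0.0906%) and 0 in Step2 against Step1 (0.0433%). An unadjusted p below 0.05 was reached by 7, 6 and 4 of the 45, against 7.27%, 8.25% and 4.29% of all windows. limma-trend also called 0 of the 45 in each, where it called 14, 33 and 14 of 25381 windows. Values were below 0 in 34 of 45 windows in Step1 and 35 in Step2, against 48.3% and 48.8% of all windows, with medians of −0.14 and −0.16. All 45 lie in genes over 300 kb, and of such genes 73.7% and 74.4% had gene-body values below 0. Windows in other genes of this class were not counted apart. Using 1 read per position, limma called 0 of the 45 in each comparison, where it called 0%, 0.0197% and 0.00789% of all windows. An unadjusted p below 0.05 was then reached by 7, 7 and 4, against 8.28%, 8.12% and 5.51%. The lowest p in Step1 was that of the Adgrb3 window chr1:25200001-25300000, with 107 and 127 reads in Con and 80 and 60 in Step1 (−0.68 ± 0.21, limma, adjusted p = 0.433). Next were 2 Tenm2 windows, chr11:37100001-37200000 with 127 and 102 reads in Con and 72 and 69 in Step1 (−0.63 ± 0.21), and chr11:36200001-36300000 (−0.53 ± 0.21). The first of these Tenm2 windows had the lowest p in Step1 with 1 read per position (−0.69 ± 0.18, limma, adjusted p = 0.169), ahead of the Adgrb3 window (−0.62 ± 0.17, adjusted p = 0.170).

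In Step2 the lowest p belonged to the Adgrb3 window chr1:25700001-25800000, at the start of the gene, with 125 and 145 reads in Con, compared with 106 and 83 in Step1 and 43 and 66 in Step2 (−0.72 ± 0.23, limma, adjusted p = 0.293). Of the 145 reads in Con replicate 2, 14 came from the densest position of the gene, and with 1 read per position the value was −0.57 ± 0.19 (limma, adjusted p = 0.342). It was −0.39 without Step2 replicate 1 and −1.05 without Step2 replicate 2, and −1.08 and −0.45 in the 2 sequencing runs. The Tenm1 window chrX:42600001-42700000 had 131 and 90 reads in Con and 47 and 48 in Step2 (−0.58 ± 0.23). The Tenm4 window chr7:96300001-96400000 had 89 and 86 reads in Con, against 93 and 81 in Step1 and 37 and 37 in Step2 (−0.62 ± 0.25). Scaled to depth, this last window had 40.8 and 41.7 CPM in Step1, just above the 40.4 and 39.4 of Con. It was also among the 3 lowest p-values of Step2 against Step1 (−0.67 ± 0.25). There the others were chr5:81200001-81300000 in Adgrl3 (0.60 ± 0.21) and chr11:37100001-37200000 in Tenm2 (0.57 ± 0.22), both higher in Step2, and all 3 had an adjusted p of 0.999 in limma. Without Con replicate 1 the window chr1:25200001-25300000 was called in Step1 (−0.81, limma, adjusted p = 0.0363) and chr1:25700001-25800000 in Step2 (−0.84, adjusted p = 0.0495). In that fit 0.697% and 0.603% of all windows were called, far more than with all 6 libraries.

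Few reads lay at the gene starts. Within 1 kb of the 10 starts there were 25 and 11 reads in Con, with 23 and 26 in Step1 and 17 and 14 in Step2, and the groups overlapped. None of the 10 start regions reached the count minimum. With no minimum limma called 0 of 10 in each comparison, where 0.0141% of regions were called in Step1 against Con, 0.00471% in Step2 against Con and 0.0141% in Step2 against Step1. The lowest p in Step1 was that of Adgrb2, with no reads in Con and 3 and 4 in Step1 (limma, adjusted p = 0.305). In Step2 it was that of Adgrb1, with 8 and 2 reads in Con, 6 and 4 in Step1, and none in Step2 (limma, adjusted p = 0.279).

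Exons held slightly more reads than their share of the length. Of 25057 reads in the 10 bodies, 697 (2.78%, 95% Wilson interval 2.59 to 2.99, for counting error only) lay in exons, which make up 2.48% of the length. Tenm2 had the smallest share, 0.568% (0.405 to 0.797) for 0.933% of its length. With 1 read per position it was 0.675%, with an interval that included the share of length (0.479 to 0.951). Adgrl2 also lay below its length, at 6.19% (4.78 to 7.97) for 8.11%, but not with 1 read per position (5.36 to 9.08). In Tenm1, Tenm3, Adgrl1 and Adgrb3 the interval included the share of length. Shares above the length were found in Adgrl3, 3.59% (3.04 to 4.24) for 2.2% of its length, in Tenm4, 3.62% (3.02 to 4.33) for 2.84%, in Adgrb1, 14.5% (11.2 to 18.5) for 9.86%, and in Adgrb2, 25.3% (19.4 to 32.3) for 17.2%. With 1 read per position the intervals of Adgrl3 (2.45 to 3.67), Tenm4 (2.9 to 4.31) and Adgrb1 (11.4 to 19.4) still lay above the share of length, while that of Adgrb2 (15.4 to 29.1) included it.

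Reads fell on both strands of these genes in near-equal numbers. On the strand of the gene lay 49.8% of Tenm2 reads (95% Wilson interval 48.5 to 51.0) and 49.6% of Adgrb3 reads (48.0 to 51.2). In the other teneurins the intervals lay below 50%: the share was 48.0% in Tenm4 (46.3 to 49.8), 48.1% in Tenm3 (46.2 to 49.9) and 48.5% in Tenm1 (47.0 to 49.96). It was below 50% in 6 of 6 libraries for Tenm4 and Tenm1, and above it in 2 of 6 for Tenm3. Among these 3 only the interval of Tenm1 still lay below 50% with 1 read per position (48.3%, 46.6 to 49.96), again with 6 of 6 libraries below, while Tenm4 (46.4 to 50.2) and Tenm3 (46.4 to 50.4) included it. Adgrb1 had 57.1% (51.9 to 62.2) with all reads, above 50% in 6 of 6 libraries. With 1 read per position this was 54.1% (48.5 to 59.6), above 50% in 4 of 6.

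Of 33 ligands and signalling partners of these receptors, 28 were tested and limma called 0 in each comparison, with an unadjusted p below 0.05 in 5 in Step1 against Con, 4 in Step2 against Con and 1 in Step2 against Step1. Over all genes the shares were 7.08%, 7.77% and 3.42%. Their median log2 fold change was −0.09 in Step1 and −0.13 in Step2, with 19 of 28 below 0 in both, against 54.7% and 54% of all genes. Nrxn3, a presynaptic neurexin that binds latrophilins and C1q-like proteins, had 672 and 754 CPM in Con, compared with 634 and 644 in Step1 and 620 and 697 in Step2. Its value in Step1 was −0.16 ± 0.04 (limma, adjusted p = 0.184), and with 1 read per position it was the 1 partner called, at −0.16 ± 0.03 (adjusted p = 0.00106). Magi2, a scaffold protein of the synapse, had −0.09 ± 0.04 in Step1 and −0.15 ± 0.05 in Step2, neither called.

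The 24 other adhesion receptors, all tested, gave no call in limma in any comparison, with an unadjusted p below 0.05 in 3 in Step1 against Con, 2 in Step2 against Con and 1 in Step2 against Step1 (7.08%, 7.77% and 3.42% of all genes). None was called with 1 read per position. Here 10 of 24 values were below 0 in Step1 and 9 in Step2, where 54.7% and 54% of all genes were, and the medians were 0.12 and 0.17. Adgrv1, a very large receptor of hair cells that spans 538 kb, had 186 and 209.8 CPM in Con, against 231 and 212 in Step1 and 213 and 249 in Step2. With all reads it was thus higher in all 4 of these libraries. Both libraries were above Con in 15.4% of all genes in Step1 and 15.2% in Step2, and in 8.64% and 7.41% of those over 300 kb. Adgrv1 did not pass the test (0.17 ± 0.09 and 0.22 ± 0.10, limma, adjusted p = 0.712 and 0.597). The fold changes fell to 0.09 ± 0.07 and 0.12 ± 0.08 with 1 read per position, and the groups then overlapped. Con replicate 2, at 218 CPM, was then above Step1 replicate 2 (210) and Step2 replicate 1 (212). Step1 replicate 1 (224) and Step2 replicate 2 (235) stayed above it. Adgrg6, a receptor needed for myelination by Schwann cells, had 0.05 ± 0.16 and 0.17 ± 0.18, and Adgrg4 −0.06 ± 0.17 and −0.04 ± 0.18.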

How the data were processed

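The deposited files list aligned reads with interval, strand and a score. Per the submitters' processing notes and the labels, PCR duplicates were removed by molecular identifier and reads were aligned to mm10 with Bowtie2, then passed through SAMtools and bedtools. Their versions were not given in the sources used here. The deposited score is the aligner's mapping quality, 11 to 42. Gene bodies were those of GENCODE M21, and sequences were read from a genome of the same build. Reads were counted at their 5′ ends. Library size counted the reads of chromosomes 1 to 19 and X outside 26 piled-up windows of 10 kb, those over 20 times the median of a nonzero window (45.0). It ran from 1417749 to 2280767. Genes, gene starts (1 kb on each side) and 100-kb windows were kept if 2 or more libraries had 10 or more reads. Each kind was fitted in limma 3.58.1 under R 4.3.3, using voom weights and a mean for each group across the 6 libraries. Two-sided p-values were adjusted by Benjamini-Hochberg within a kind, and 0.05 was the threshold. Errors of fold changes are standard errors of limma. Intervals of shares cover counting error only. Python 3.11.15 with pandas 2.3.3, numpy 2.4.6 and SciPy 1.17.1 did the counting, and matplotlib 3.10.9 the figures. The fit was tested on simulated counts.

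The members, the lists of partners, other adhesion receptors and markers, and the tests were chosen with earlier results of these data known. All 10 members are named. Of the other lists, genes called in any comparison and the 3 with the most reads are named, of windows those called and otherwise the 3 with the lowest p per comparison, and of positions the densest of each member, with sequence for the 4 with the most reads. A gene the rule takes is not reported here. Alternatives were other scalings, count filters, mapping qualities and models, 1 read per position, a GC smooth, the 2 sequencing runs given by read names, and each library left out. Reads on chromosome Y and the mitochondrial genome were not compared.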

Additional observations from a re-analysis of the deposited data

How the results depend on the processing

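Of 1650 values recomputed under alternatives 92 had another sign, and 0 of these were called in either fit. In Step1 against Con, where 1 member was called in gene bodies, limma called 0 with median-of-ratios scaling, trimmed mean of M values, at least 30 reads in 4 libraries, limma-trend, 1 read per position with median-of-ratios scaling, sequencing run 1, sequencing run 2 and a fit on the 2 groups alone. It called 2 with 1 read per position, also with the GC smooth removed. In Step2 against Con, where 0 were called, it called 1 with 1 read per position, with this and the GC smooth removed, with a mapping quality of 42 only and with piled-up windows left out. Calls over all genes changed too, from 13 of 13811 to 24 of 12806 with a mapping quality of 42 only and 31 of 13797 with piled-up windows left out. Across alternatives other than leaving out a library, 0.0315% to 0.275% of genes were called in Step1 and 0.0236% to 0.384% in Step2. With each library left out in turn the count ran from 0 to 2 in Step1 and from 0 to 1 in Step2, and member windows of 100 kb called ran from 0 to 1 in both. The highest counts came without Con replicate 1, where 177 and 122 of 13811 genes were called in place of 17 and 13. Where 1 library of a group is left, it is assumed to vary like the others. The combination of 1 read per position with median-of-ratios scaling and that with the replicate block were chosen after seeing the data.

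Libraries with the same replicate number did not deviate together (r = 0.0327 for Con with Step1, 0.005 for Con with Step2 and −0.0051 for Step1 with Step2, across genes). With 2 libraries a group this cannot settle whether the numbers pair the samples. A replicate block in the fit called 38 of 13811 genes in Step1 and 43 in Step2, in place of 17 and 13. With 1 read per position it called 11 and 16 of 12715, in place of 15 and 16. With the replicate block, 1 member was called in Step1 (Tenm2, limma, adjusted p = 0.0071) and 1 in Step2 (Adgrb3, adjusted p = 0.0164). With the replicate block and 1 read per position the counts were 2 and 1.

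Depth limits the short genes: with 151 to 352 reads over all libraries, Adgrl1, Adgrb1 and Adgrb2 had standard errors of 0.22 to 0.38. The minimum of 30 reads in 4 libraries leaves Adgrl1 and Adgrb2 untested.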
